A study of Mus musculus with 18 samples.

Results

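The NF-kB and TNF receptor pathway genes described here are 40 genes of sorted mouse medullary thymic epithelial cells (mTECs), chosen by symbol as the Rel subunits, their inhibitors, kinases, adaptors, negative regulators, receptors and ligands. All 40 were found in each of the tables with counts, which hold 49585 genes for the Aire and Fezf2 libraries and 21969 for the Chd4 libraries. RNA-seq was measured in 18 libraries that form 6 groups of 3: mTECs labelled Aire KO beside a wild-type (WT) group, those labelled Fezf2 KO with a WT group of their own, and those of a Chd4 conditional knockout (cKO) with a control. Mice of the first 4 groups were C57BL/6. The count columns call the Fezf2 knockout conditional and the sample labels do not. Both Chd4 groups were C57BL/6x129P2 and carried Chd4 flox/flox, and only the cKO carried Foxn1-Cre, a recombinase driven by a promoter active throughout the thymic epithelium. No age is given, and nothing says whether the 3 libraries of a group came from separate animals or pools, so p-values measure only the spread between these libraries.

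NF-kB transcription factors are dimers of Rel-family proteins that wait in the cytoplasm. In the canonical arm, receptors such as those for TNF activate a kinase complex that destroys an IkB inhibitor and frees dimers of p50 (Nfkb1) and RelA. In the non-canonical arm, receptors such as RANK (Tnfrsf11a) and the lymphotoxin beta receptor (Ltbr) let the kinase NIK (Map3k14) accumulate, which drives the processing of p100 (Nfkb2) to p52 and frees dimers with RelB. The non-canonical arm is required for mTEC development, and mouse thymi without RelB or functional NIK have few or no mature mTECs.

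Libraries of a group are called A, B and C, and values listed for a group follow that order. Values per library are CPM, exon reads of a gene scaled to a common library size after TMM normalisation within a comparison. Exon reads per library ranged from 3571570 to 17220157, so that 3 reads equal 0.174 to 0.84 CPM. The Fezf2 transcript stood at 9.09, 8.44 and 23.4 CPM in Fezf2 KO libraries against 653, 735 and 570 CPM in WT, and Chd4 at 24.6, 27.5 and 30.2 CPM in the cKO against 55.4, 66.5 and 58.9 CPM in its control. Aire was higher in the libraries labelled Aire KO, at 3737, 4088 and 3997 CPM against 1942, 1810 and 2302 CPM in WT. Which exons of Aire were deleted is not known here, and directions below are for the libraries labelled Aire KO. One control library stood apart: in WT for Fezf2 library B, 18 of the 40 members lay more than 1.5-fold from the median of its group, against 0 to 2 members in each of the other 17 libraries. It held 192 CPM of Nfkb1, where WT for Fezf2 libraries A and C held 66.5 and 88.1 CPM. Epcam, a surface marker of thymic epithelium, ranged from 448 to 674 CPM over all libraries, and was lowest in the libraries labelled Aire KO, at 448 to 521 CPM against 612 to 639 CPM in WT. Y-linked transcripts summed to 157 CPM or more in 5 libraries (labelled Aire KO B and C, WT for Aire A and C, Chd4 control A) and to 12.6 CPM or less in the others.

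Per length of exon, the inhibitor Nfkbia was the most abundant of the 40 transcripts in every group, and the ligand Tnfsf13b (BAFF) or Tnfsf11 (RANKL) the least. Nfkbia averaged 1475 ± 61.1 RPKM (CPM per kilobase of exon, SD, n = 3) in libraries labelled Aire KO, 1237 ± 33.6 in WT for Aire, 924 ± 76.4 in Fezf2 KO, 1247 ± 410 in WT for Fezf2, 1229 ± 47.6 in Chd4 cKO and 1423 ± 402 in Chd4 control. Tnfsf13b averaged between 0.293 ± 0.181 RPKM in Fezf2 KO and 2.81 ± 0.303 RPKM in Chd4 cKO. At least 10 RPKM were reached by 32 of the 40 members in libraries labelled Aire KO and 31 in their WT, by 31 in Fezf2 KO and 29 in their WT, and by 33 in Chd4 cKO and 34 in their control. In 4 of the 6 groups, all but Fezf2 KO and Chd4 cKO, the next highest means belonged to Tnfrsf11b (osteoprotegerin, the soluble decoy receptor of RANKL), Nfkb2 and Tnip1, an adaptor of the inhibitory enzyme A20. Levels in the Chd4 libraries rest on another annotation with other exon lengths and were not tested against those of the other groups.

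Among the Rel subunits, the transcripts of the non-canonical arm were the more abundant. In WT for Aire the order was Nfkb2 at 154 ± 14.1 RPKM, Relb at 85.8 ± 2.47, Rela at 39.8 ± 4.24, Nfkb1 at 14.2 ± 0.926 and Rel at 9.98 ± 1.29 (SD, n = 3). These 5 levels did not overlap between neighbours in that group. The same order held for the means of all groups but Chd4 cKO, where Relb at 113 ± 11.5 RPKM and Nfkb2 at 110 ± 3.72 RPKM lay within their spread. In WT for Fezf2, Nfkb1 at 18.6 ± 10.8 RPKM was set by library B, whose 30.9 RPKM came close to its Rela level of 31.3 RPKM.

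**Figure D1:**
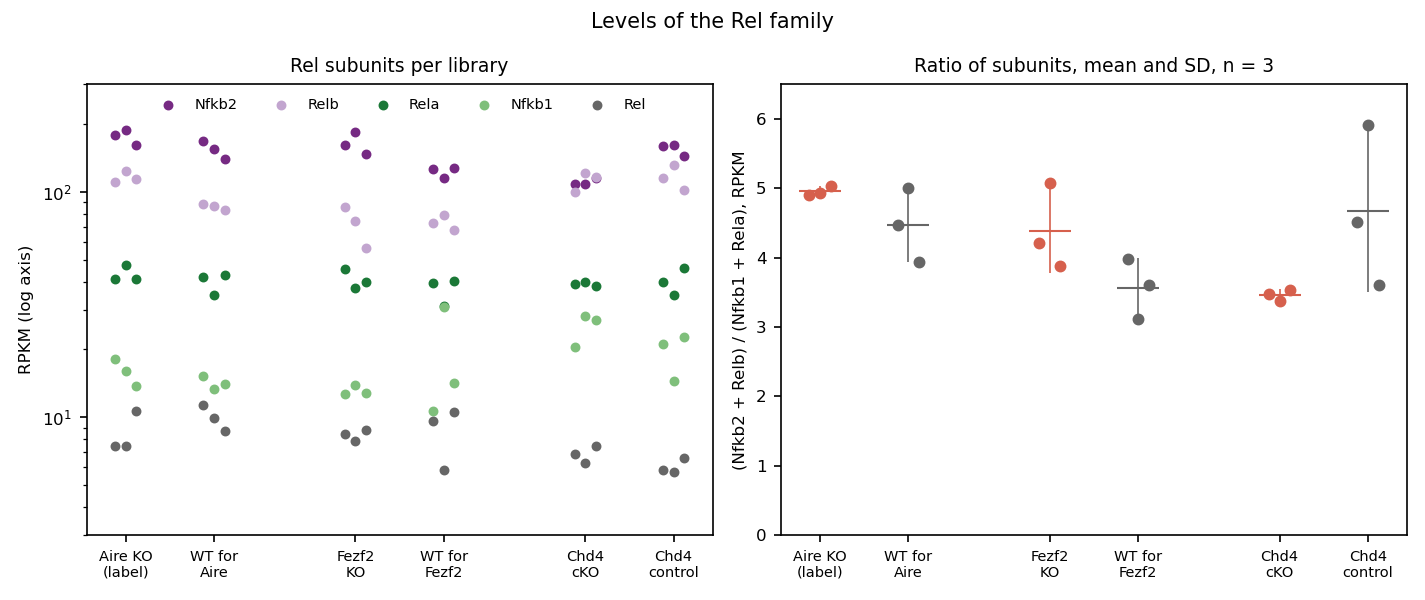
Levels of the 5 Rel subunits per library in RPKM on a log axis (left) and the ratio of Nfkb2 plus Relb to Nfkb1 plus Rela per library with mean and SD (right), for the 6 groups with each knockout left of its control. The ratio lay between 3.38 and 3.54 in the 3 Chd4 cKO libraries and between 3.6 and 5.92 in the Chd4 control.

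The ratio of the summed non-canonical subunits (Nfkb2 and Relb) to the summed canonical subunits (Nfkb1 and Rela) was 4.9, 4.94 and 5.04 in libraries labelled Aire KO against 4.48, 5 and 3.94 in WT. It was 4.22, 5.08 and 3.88 in Fezf2 KO against 3.98, 3.11 and 3.6 in WT. In Chd4 cKO it was 3.48, 3.38 and 3.54 against 4.51, 5.92 and 3.6 in the control. The Chd4 groups did not overlap, although control library C lay just above the cKO, and the other pairs overlapped. No test was made of this ratio.

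Several members are themselves known targets of NF-kB. RefSeq promoters (GRCm38.p6, 250 bases before to 50 after a start) were held for 34 of the 40 members, and 11 of the 34 (32.4%) had a match to the kB consensus on either strand, a 10-base motif of 3 G, a purine, any 2 bases, 2 pyrimidines and 2 C. The same was found for 9.55% of all 27025 genes with a promoter. The 11 members were Nfkb2, Rel, Nfkbia, Nfkbie, Bcl3, Traf3, Tnfaip3, Tnip1, Cyld, Tnfrsf9 and Ltb. A match describes the sequence and is no evidence of binding. The promoters of 4 of them are shown, each of a member that passed the test in a comparison below, with every match in capitals and overlapping matches merged. They lie at chr19:46304487-46304786 (+ strand, Nfkb2), chr10:19015361-19015660 (- strand, Tnfaip3), chr4:150927749-150928048 (+ strand, Tnfrsf9) and chr17:35194257-35194556 (+ strand, Ltb).
Nfkb2: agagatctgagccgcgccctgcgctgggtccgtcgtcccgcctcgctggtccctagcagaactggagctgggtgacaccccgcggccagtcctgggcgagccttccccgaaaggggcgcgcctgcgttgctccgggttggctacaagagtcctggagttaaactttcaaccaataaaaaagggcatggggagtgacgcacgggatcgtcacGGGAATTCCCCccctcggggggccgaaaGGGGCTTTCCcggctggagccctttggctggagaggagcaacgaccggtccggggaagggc
Tnfaip3: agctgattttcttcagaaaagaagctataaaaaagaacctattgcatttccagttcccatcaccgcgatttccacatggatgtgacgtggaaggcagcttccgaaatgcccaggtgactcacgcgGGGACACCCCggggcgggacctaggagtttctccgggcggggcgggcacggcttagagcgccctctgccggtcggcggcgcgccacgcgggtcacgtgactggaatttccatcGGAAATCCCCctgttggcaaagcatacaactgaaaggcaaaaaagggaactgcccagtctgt
Tnfrsf9: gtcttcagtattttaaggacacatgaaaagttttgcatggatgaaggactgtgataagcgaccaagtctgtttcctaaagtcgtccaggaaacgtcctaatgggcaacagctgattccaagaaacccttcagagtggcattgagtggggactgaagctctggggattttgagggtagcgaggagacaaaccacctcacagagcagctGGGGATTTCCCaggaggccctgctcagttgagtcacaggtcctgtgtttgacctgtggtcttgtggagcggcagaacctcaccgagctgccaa
Ltb: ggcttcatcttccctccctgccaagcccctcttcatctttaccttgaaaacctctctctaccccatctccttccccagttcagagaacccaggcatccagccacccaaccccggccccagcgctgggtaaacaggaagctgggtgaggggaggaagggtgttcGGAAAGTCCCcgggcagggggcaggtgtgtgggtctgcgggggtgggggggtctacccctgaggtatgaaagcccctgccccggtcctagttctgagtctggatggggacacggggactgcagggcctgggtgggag
The capitals mark 2 separate stretches for Nfkb2, 2 for Tnfaip3, 1 for Tnfrsf9 and 1 for Ltb. The same reference holds further starts of these genes. The other start of Tnfaip3 (chr10:19011914-19012213) and of Tnfrsf9 (chr4:150919905-150920204) had no match, while both further starts of Nfkb2, which overlap each other, had matches. The promoters of Map3k14, Tnf, Traf6, Tnip2, Ltbr, Lta and Tnfrsf1a, which also passed the test in a comparison, held no match in this window. Cyld, which passed too, had a match and is not shown. No promoter was held for Relb, Nfkbiz, Tnfsf9 and Tnfrsf11b, which also passed.

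In the libraries labelled Aire KO, the non-canonical subunit Relb and the kinase Map3k14 were higher, with the E3 ligase Traf6 and the negative regulators Tnip2 and Cyld, while the atypical inhibitor Nfkbiz, the receptor Ltbr and the ligand Lta were lower. The tests were edgeR quasi-likelihood F tests with Benjamini-Hochberg adjustment over 14949 genes. Of 39 members tested, 6 were higher and 3 lower, or 23.1%, where 15.1% of all genes tested were called (5.73% higher and 9.37% lower). Tnfsf11 had too few reads to be tested, with 1.43, 2.14 and 1.18 CPM in libraries labelled Aire KO and 1.41, 4.26 and 3.24 CPM in WT. The median log2 fold change of the members was 0.10, against 0.00 for all genes, and in 9 members all 3 libraries labelled Aire KO lay above all 3 WT libraries and in 6 below, where 15% and 17.1% of all genes did so.

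**Figure D2:**
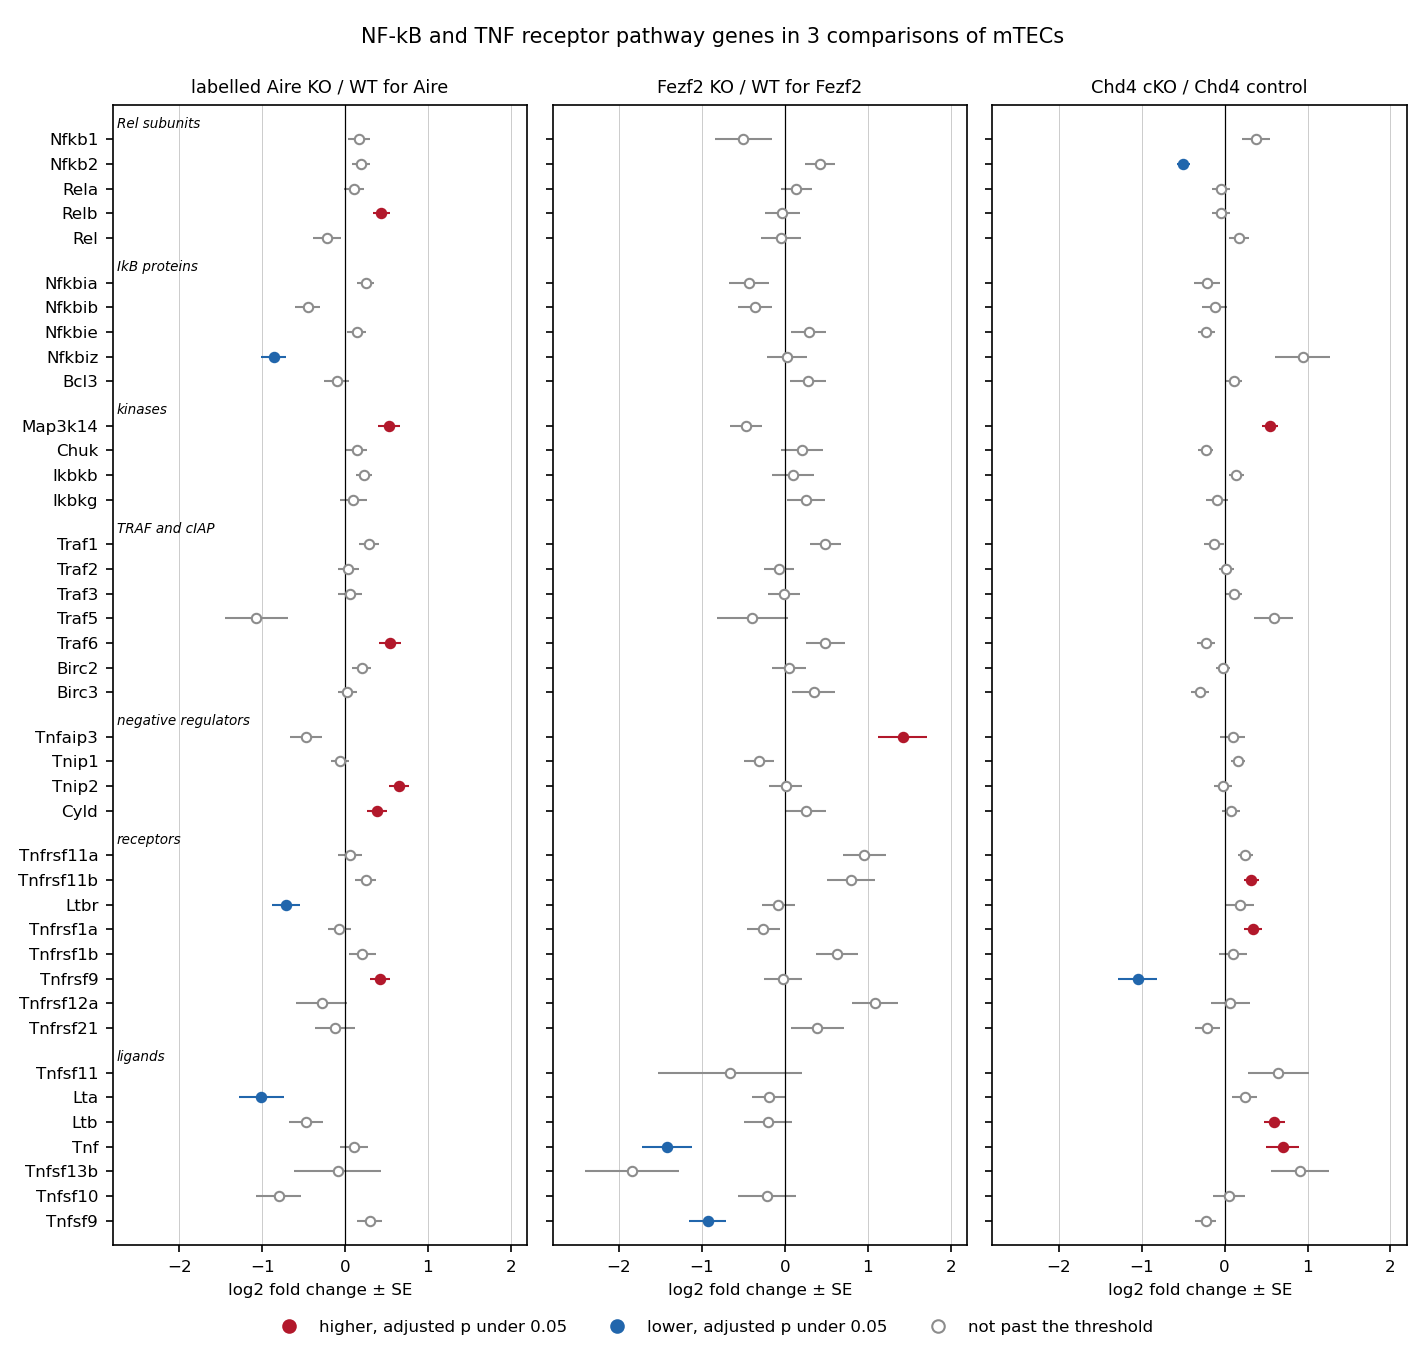
Log2 fold change with its SE for the 40 members, grouped by role, in the 3 comparisons of a knockout with its own control (edgeR, 3 libraries against 3). Filled points passed an adjusted p of 0.05: 6 red and 3 blue for Aire, 1 red and 2 blue for Fezf2, 5 red and 2 blue for Chd4. Tnfsf11 was not tested for Aire.

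Of the Rel subunits, Relb (ENSMUSG00000002983, chromosome 7, 19606217 to 19629438, GRCm38), the partner of p52, had 430, 481 and 443 CPM in libraries labelled Aire KO against 342, 335 and 323 CPM in WT. Every library labelled Aire KO was above every WT library, and the log2 fold change was 0.44 ± 0.10 (SE, adjusted p = 0.00976). Its call was kept under all 9 alternatives, with adjusted p between 0.00131 and 0.0497. Nfkb2, the precursor of p52, stood at 589, 621 and 532 CPM in libraries labelled Aire KO against 552, 511 and 460 CPM in WT, which overlapped (0.19 ± 0.11, adjusted p = 0.292). Nfkb1, the precursor of p50, had 112, 100 and 84.9 CPM in libraries labelled Aire KO against 94.7, 83.5 and 86.8 CPM in WT (0.17 ± 0.13, adjusted p = 0.46). The groups also overlapped for Rela and Rel, the transactivating subunits of the canonical arm. Rela had 111, 128 and 111 CPM in libraries labelled Aire KO against 114, 94.9 and 116 CPM in WT. Rel had 55.7, 55.9 and 80.2 CPM in libraries labelled Aire KO against 84.2, 74.3 and 65 CPM in WT.

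Map3k14 (ENSMUSG00000020941, chromosome 11, 103219762 to 103267472), the kinase NIK, had 87.1, 89.4 and 96.9 CPM in libraries labelled Aire KO against 69.8, 62.4 and 57.2 CPM in WT. The groups did not overlap, and the log2 fold change of 0.53 ± 0.13 (adjusted p = 0.0122) kept its call under all 9 alternatives (adjusted p 0.004 to 0.0486). The other kinase genes, Chuk (IKK alpha), Ikbkb (IKK beta) and Ikbkg (NEMO, the scaffold of the complex), had log2 fold changes of 0.14, 0.23 and 0.10, and none was called. Traf6, an E3 ligase downstream of RANK and of Toll-like receptors, had 186, 196 and 155 CPM in libraries labelled Aire KO against 138, 125 and 107 CPM in WT (0.54 ± 0.13, adjusted p = 0.0122), again without overlap. Without library B labelled Aire KO or without WT library C its call was lost (adjusted p = 0.0616 and 0.0544). Traf1 and the adaptors and cIAP ligases that keep NIK low (Traf2, Traf3, Birc2 and Birc3) ranged from 0.03 to 0.29 on the log2 scale and none was called.

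The mTEC markers themselves differed beside the higher Relb and Map3k14. The 11 markers, a list that includes Aire, summed to 22203 to 22808 CPM in libraries labelled Aire KO against 16910 to 18835 CPM in WT, with 4 higher, 3 lower and none at 0 reads. H2-Aa, an MHC class II gene, was the largest part of each sum. It stood at 11673 to 12820 CPM in libraries labelled Aire KO against 8916 to 10688 CPM in WT. Cd80, a costimulatory ligand of mature mTECs, stood at 101 to 109 CPM in libraries labelled Aire KO against 68.2 to 84.2 CPM in WT. Krt5, a keratin of medullary epithelium, stood at 243 to 278 CPM in libraries labelled Aire KO against 339 to 469 CPM in WT, and neither gene's groups overlapped. Cortical epithelial markers summed to 780 to 1108 CPM in libraries labelled Aire KO and 728 to 909 CPM in WT, with none of 5 called. The part of mTEC composition in these changes was not tested.

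Tnip2, an adaptor that restrains signalling together with A20, had 143, 143 and 173 CPM in libraries labelled Aire KO against 98.5, 107 and 87.2 CPM in WT (log2 fold change 0.65 ± 0.12, adjusted p = 0.00316). All 9 alternatives kept the call. Cyld, a deubiquitinase, had 112, 126 and 118 CPM in libraries labelled Aire KO against 101, 87.1 and 83.5 CPM in WT, the narrowest of the calls (0.39 ± 0.12, adjusted p = 0.044). It was lost with DESeq2 (0.0636) and without any 1 of the libraries A, B and C labelled Aire KO or WT libraries B and C (0.0517 to 0.139). Nfkbiz, an atypical nuclear IkB protein, fell, with 35.5, 48 and 39.5 CPM in libraries labelled Aire KO against 74.3, 79.7 and 70.4 CPM in WT (-0.86 ± 0.15, adjusted p = 0.00142). The highest library labelled Aire KO was below the lowest WT library, and all 9 alternatives kept the call. The other IkB genes were not called: Nfkbia 0.25 (adjusted p = 0.107), Nfkbib -0.45 (0.0647), Nfkbie 0.14 (0.434) and Bcl3 -0.10 (0.737). Tnfaip3, which encodes A20, was not called either (-0.47 ± 0.19, adjusted p = 0.127).

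Receptors and ligands changed in both directions. Ltbr had 36.7, 33.9 and 40 CPM in libraries labelled Aire KO against 47.6, 72 and 61.1 CPM in WT, without overlap (log2 fold change -0.71 ± 0.17, adjusted p = 0.0132). Its call was lost without library B labelled Aire KO (0.0686) and without WT library B (0.0688). Lta, lymphotoxin alpha, which with Ltb forms the ligand of that receptor, had 24.3, 10.3 and 18.7 CPM in libraries labelled Aire KO against 35.1, 29.4 and 42.3 CPM in WT (-1.01 ± 0.27, adjusted p = 0.0228). Every library labelled Aire KO was below every WT library, and the call was lost without library B labelled Aire KO (0.0764), WT library A (0.0636) or WT library C (0.104). Ltb itself had 40.5, 28.7 and 25.5 CPM in libraries labelled Aire KO against 38.6, 49.6 and 43.2 CPM in WT, which overlapped. Tnfrsf9 (4-1BB, a costimulatory receptor) rose modestly, with 93.8, 94.1 and 103 CPM in libraries labelled Aire KO against 79.5, 67.8 and 70.2 CPM in WT (0.42 ± 0.12, adjusted p = 0.0315). The call was lost without libraries B or C labelled Aire KO or WT libraries B or C (0.066 to 0.105).

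RANK and its decoy did not pass in this comparison. Tnfrsf11a had 337, 347 and 266 CPM in libraries labelled Aire KO against 330, 342 and 241 CPM in WT (log2 fold change 0.06 ± 0.15). Tnfrsf11b had 835, 852 and 644 CPM in libraries labelled Aire KO against 675, 715 and 569 CPM in WT (0.25 ± 0.13, adjusted p = 0.24). Both overlapped between the groups. The remaining receptors and ligands tested lay between -0.80 (Tnfsf10, TRAIL) and 0.30 (Tnfsf9, the ligand of 4-1BB). Tnfsf10, which signals through death receptors, missed the threshold without overlap of the groups (-0.80 ± 0.27, adjusted p = 0.0632). Markers of other cells moved in part beside these genes: the 15 thymocyte markers summed to 92.4 to 145 CPM in libraries labelled Aire KO and 79.3 to 172 CPM in WT with none of 14 tested called and no marker at 0 reads. The 5 B cell markers summed to 27.2 to 36.9 CPM in libraries labelled Aire KO against 41.4 to 44.7 CPM in WT, with none of 5 called. The 6 innate lymphoid markers summed to 199 to 216 CPM in libraries labelled Aire KO against 154 to 181 CPM in WT, with 1 of 4 tested higher. Ncr1 was at 0 reads in both groups and Klrb1c in libraries labelled Aire KO. The 8 fibroblast and endothelial markers summed to 357 to 444 CPM in libraries labelled Aire KO against 208 to 252 CPM in WT, without overlap, with 2 of 6 tested higher and 3 lower. The 10 dendritic cell and macrophage markers summed to 1068 to 1704 CPM in libraries labelled Aire KO and 979 to 1224 CPM in WT, with 1 of 6 tested higher and 2 lower, and Itgax and Cd209a at 0 reads in libraries labelled Aire KO. Of these sums Ptprc held 8.99 to 14.8 CPM in libraries labelled Aire KO and 9.2 to 14.2 CPM in WT. Other genes of that list therefore made up most of each sum. The part of these cells in the changes of Lta, Ltbr and Tnfrsf9 was not tested, and in bulk RNA fewer cells of a type and less RNA per cell cannot be told apart.

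**Figure D3:**
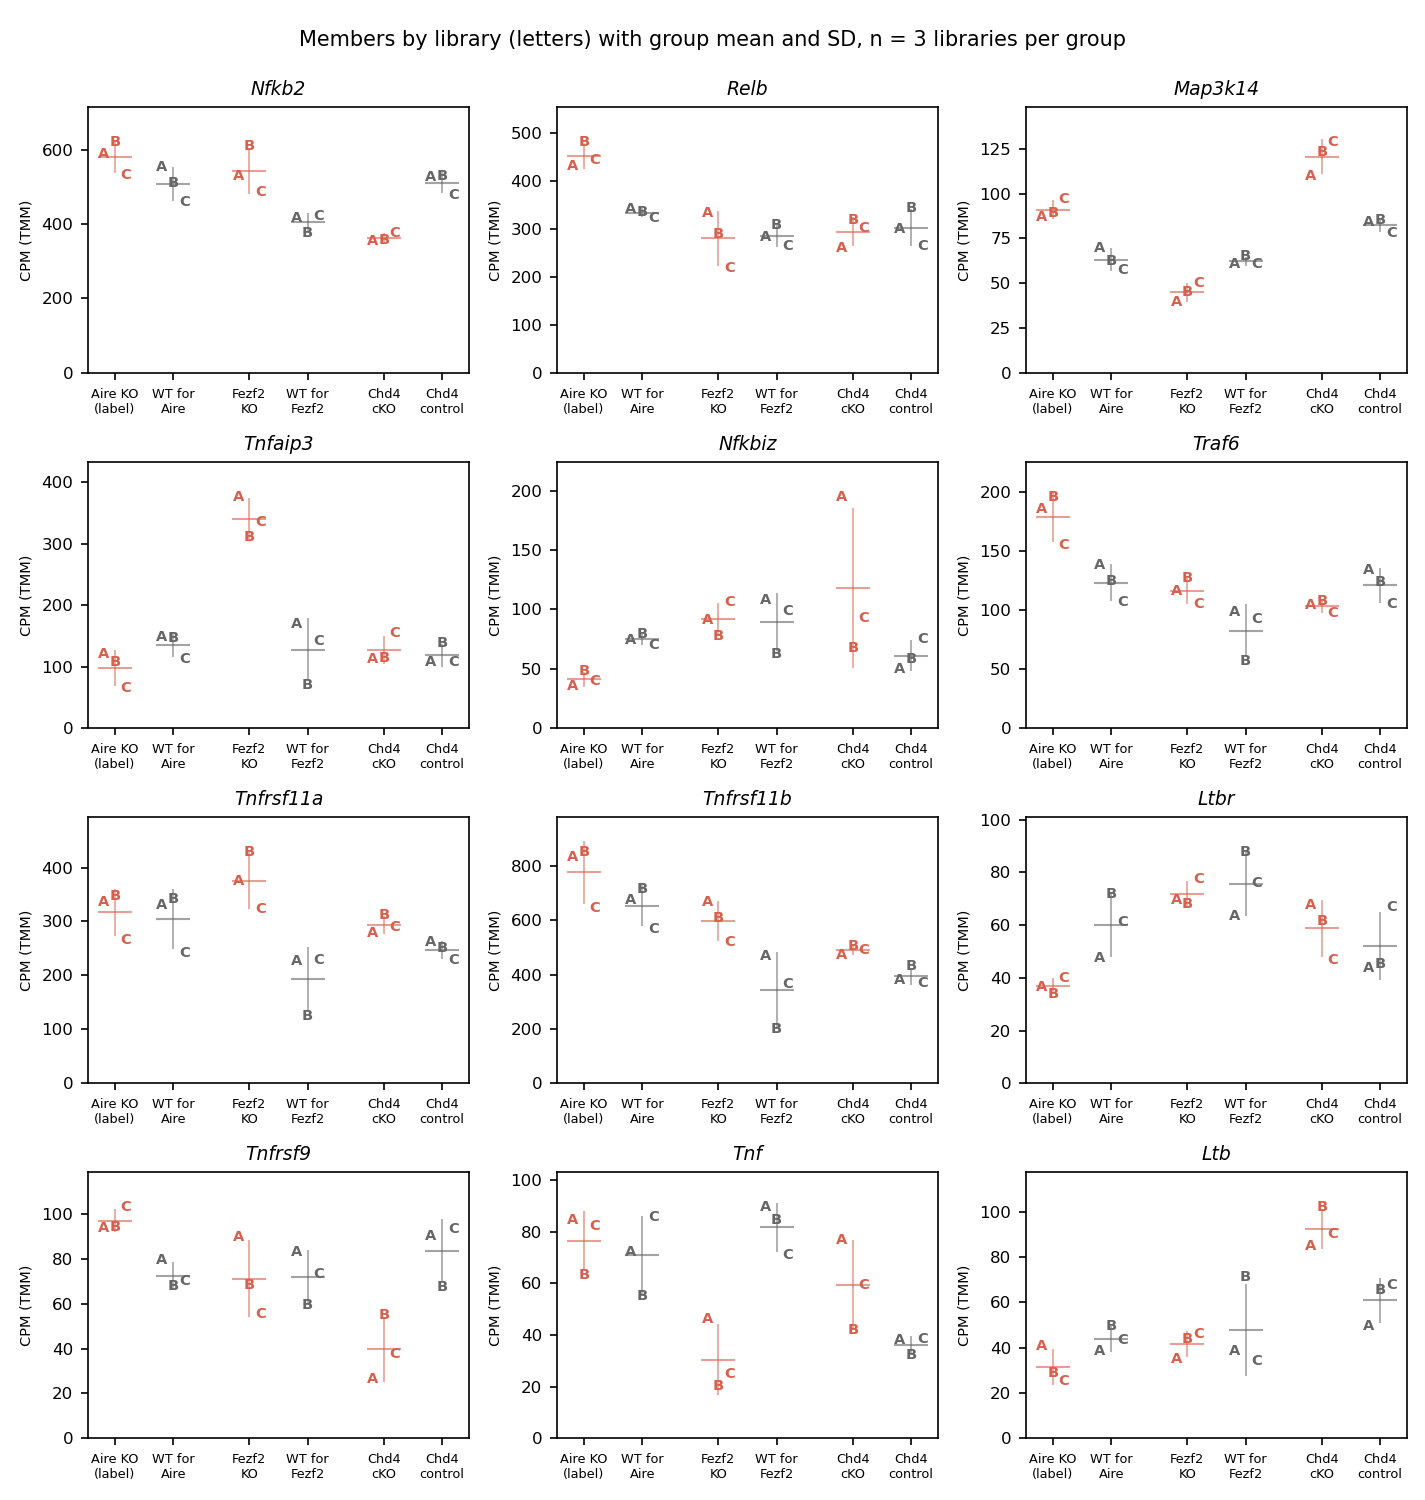
CPM of 12 members in each library (letters A to C) with the group mean and SD, red for each knockout and grey for its control on the right of it. Tnfaip3 lay at 310 CPM or more in the Fezf2 KO libraries and at 170 CPM or less in WT for Fezf2, whose library B was the lowest for Tnfaip3, Tnfrsf11a and Tnfrsf11b.

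In Fezf2 KO mTECs, Tnfaip3 was higher and the ligands Tnf and Tnfsf9 lower, and no Rel subunit, kinase or adaptor passed the test. With 3 of 40 members called, or 7.5%, against 4.87% of 15695 genes tested, the count was near the background (2.48% of all genes were higher and 2.4% lower). The median log2 fold change of the members was 0.00, against -0.03 for all genes. In 8 members all Fezf2 KO libraries lay above all WT libraries and in 5 below, where 14.2% and 13.4% of all genes did so.

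Tnfaip3 (ENSMUSG00000019850, chromosome 10, 19000910 to 19015657), the ubiquitin-editing enzyme A20 that shuts off NF-kB signalling, had 376, 310 and 335 CPM in Fezf2 KO against 170, 70.2 and 141 CPM in WT. The groups were far apart, with a log2 fold change of 1.42 ± 0.30 (adjusted p = 0.0255). Leaving out WT library B, the lowest, gave 1.13 ± 0.13 (adjusted p = 1.65e-04). The call was lost without Fezf2 KO libraries A (0.12), B (0.0968) or C (0.117) or WT library C (0.0525). The promoter shown above, of 1 of its 2 starts, holds 2 kB stretches, and that of the other start none. Of the other negative regulators, Tnip1 had 436, 398 and 379 CPM in Fezf2 KO against 489, 484 and 532 CPM in WT, without overlap but not called (-0.31 ± 0.18, adjusted p = 0.376), and Tnip2 and Cyld stood at 0.01 and 0.26 on the log2 scale.

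Tnf (ENSMUSG00000024401, chromosome 17, 35199381 to 35202007) had 46, 20.2 and 25 CPM in Fezf2 KO against 89.5, 84.3 and 71 CPM in WT. Every Fezf2 KO library was below every WT library (log2 fold change -1.42 ± 0.30, adjusted p = 0.0266). The call was lost without Fezf2 KO libraries B (0.14) or C (0.15) or WT library A (0.0672). Tnfsf9 had 73.2, 47.5 and 53.2 CPM in Fezf2 KO against 99.8, 126 and 106 CPM in WT, also without overlap (-0.93 ± 0.22, adjusted p = 0.0414). That call was lost without any Fezf2 KO library or WT libraries A or C (0.072 to 0.231). A gene on the opposite strand, Gm11110, shares 14.9% of the 1290 exon bases of Tnfsf9 in the GENCODE annotation. The counts rest on 1230 exon bases, and whether counting used strand is unknown here. All 7 ligands had negative log2 fold changes, with a median of -0.66, where 8227 of 15695 genes tested were negative. Without WT library B, Ltb was at 0.20 and the other 6 ligands stayed negative. The lowest, Tnfsf13b at 2.45, 0.617 and 2.98 CPM in Fezf2 KO against 9.43, 6.02 and 6.26 CPM in WT, was not called (-1.84 ± 0.57, adjusted p = 0.102).

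Thymocyte markers moved in the same direction as Tnf, which T cells also make. The 15 thymocyte markers summed to 215, 268 and 272 CPM in Fezf2 KO against 793, 746 and 435 CPM in WT, with 8 of 15 lower and none at 0 reads. Sums of 5 B cell markers were 32.8 to 39.7 CPM in Fezf2 KO against 50.5 to 85.4 CPM in WT. Those of 10 dendritic cell and macrophage markers were 626 to 882 CPM in Fezf2 KO against 1005 to 1286 CPM in WT, with none of 4 and 8 markers tested in these lists called. In the latter list Ptprc held 28.7 to 30.7 CPM in Fezf2 KO against 45 to 66 CPM in WT, so its other genes made up most of each sum. Other lists had higher sums in Fezf2 KO without overlap, and in all but the mTEC list no marker tested was called. The 5 cortical epithelial markers summed to 1360 to 2005 CPM in Fezf2 KO against 801 to 1173 CPM in WT. The 8 fibroblast and endothelial markers summed to 232 to 279 CPM in Fezf2 KO against 147 to 212 CPM in WT, and the 6 innate lymphoid markers to 142 to 144 CPM in Fezf2 KO against 119 to 137 CPM in WT. The 11 mTEC markers, which include Fezf2, summed to 18814 to 20169 CPM in Fezf2 KO against 14019 to 18683 CPM in WT, with 1 higher and 1 lower. Of these sums H2-Aa held 11717 to 13474 CPM in Fezf2 KO and 7429 to 11188 CPM in WT. The part of all these cells in the higher Tnfaip3, the lower Tnf and Tnfsf9 and the receptor values was not tested. Lta, which lymphocytes also make, had 25, 26.5 and 29.1 CPM in Fezf2 KO against 28.9, 29.1 and 34.2 CPM in WT. Ltb, another lymphocyte ligand, had 34.9, 43.6 and 46.1 CPM in Fezf2 KO against 38.4, 71.2 and 33.9 CPM in WT, and both overlapped.

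Among the receptors, RANK, its decoy and Tnfrsf12a had positive fold changes whose calls depended on WT library B and on the method. Tnfrsf11a (ENSMUSG00000026321, chromosome 1, 105780718 to 105847981) had 375, 429 and 323 CPM in Fezf2 KO against 226, 125 and 228 CPM in WT. The groups did not overlap, and the test fell short (log2 fold change 0.96 ± 0.26, adjusted p = 0.0629). Tnfrsf12a, the receptor of TWEAK, had 52.1, 47.9 and 58.9 CPM in Fezf2 KO against 17.4, 35.4 and 21.9 CPM in WT (1.09 ± 0.28, adjusted p = 0.0518). Tnfrsf11b had 667, 608 and 520 CPM in Fezf2 KO against 470, 198 and 366 CPM in WT (0.80 ± 0.29, adjusted p = 0.167). Without WT library B all 3 passed, at 0.73 ± 0.13 (0.00307), 1.43 ± 0.19 (3.72e-04) and 0.52 ± 0.14 (0.0301), and Tnfsf13b fell (-1.95 ± 0.58, 0.0462). Without that library, WT for Fezf2 against WT for Aire gave -0.70 ± 0.14 for Tnfrsf11b (adjusted p = 0.0174). It gave -0.48 ± 0.15 for Tnfrsf11a (adjusted p = 0.0953) and -0.17 ± 0.31 for Tnfrsf12a (adjusted p = 0.843). DESeq2 called Tnfrsf11a (0.00811) and Tnfrsf12a with all libraries. The fit without WT library B called 7 of 40 members and 12.6% of 16194 genes tested, against 4.87% with all libraries. Ltbr did not pass in either fit, with 69.7, 67.9 and 77.5 CPM in Fezf2 KO against 63.3, 87.8 and 76.1 CPM in WT.

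The Rel subunits overlapped between Fezf2 KO and WT, save Nfkb2. It had 530, 610 and 487 CPM in Fezf2 KO against 415, 377 and 422 CPM in WT, with every Fezf2 KO library above every WT library (log2 fold change 0.42 ± 0.18, adjusted p = 0.246), and stayed uncalled under all 9 alternatives. Nfkb1 had 78.8, 86.2 and 79.8 CPM in Fezf2 KO against 66.5, 192 and 88.1 CPM in WT (-0.50 ± 0.34), and 0.08 ± 0.15 without WT library B. Relb had 332, 289 and 219 CPM in Fezf2 KO against 283, 308 and 264 CPM in WT, so that neither group was clearly higher. Rela had 124, 101 and 108 CPM in Fezf2 KO against 107, 85.1 and 110 CPM in WT. Rel had 63.1, 58.8 and 65.4 CPM in Fezf2 KO against 71.7, 43.5 and 78.7 CPM in WT. Map3k14 had 39.7, 44.9 and 50.2 CPM in Fezf2 KO against 60.6, 65.2 and 60.9 CPM in WT. It was lower in every Fezf2 KO library but was not called (-0.47 ± 0.19, adjusted p = 0.218), nor without WT library B (-0.44 ± 0.15, adjusted p = 0.0868). The IkB genes lay between -0.43 and 0.29 and the TRAF and cIAP genes between -0.39 and 0.49 on the log2 scale, with none called.

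In Chd4 cKO mTECs, Nfkb2 and the receptor Tnfrsf9 were lower, and the kinase Map3k14, the receptors Tnfrsf11b and Tnfrsf1a and the ligands Ltb and Tnf were higher. These 7 of 40 members (17.5%) compare with 28.6% of 15182 genes called (14.3% in each direction), and the difference between these shares was not tested. The median log2 fold change of the members was 0.09, against 0.00 for all genes, and in 9 members all cKO libraries lay above all control libraries and in 5 below, where 22.1% of all genes did so in each direction.

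Nfkb2 (ENSMUSG00000025225, chromosome 19, 46304320 to 46312385) had 355, 357 and 377 CPM in Chd4 cKO against 527, 529 and 478 CPM in the control. The groups were well apart, with a log2 fold change of -0.50 ± 0.08 (adjusted p = 0.00152), and all 9 alternatives kept the call (adjusted p 5.72e-06 to 0.00987). Exons of genes on the opposite strand, AC114539.1 and Psd, share 11.6% and 6.52% of its 4584 exon bases in the GENCODE annotation. The counts rest on 3289 exon bases of Nfkb2, for which the shared part was not computed. The 4 other Rel subunits were not called and overlapped between the groups. Relb had 260, 319 and 302 CPM in Chd4 cKO against 299, 343 and 265 CPM in the control (-0.04 ± 0.11). Rela had 106, 109 and 103 CPM in Chd4 cKO against 108, 95 and 125 CPM in the control (-0.04 ± 0.11). Nfkb1 had 84.4, 116 and 112 CPM in Chd4 cKO against 87.5, 59.6 and 93.6 CPM in the control (0.38 ± 0.17, adjusted p = 0.124). Rel had 51.3, 46.7 and 55.7 CPM in Chd4 cKO against 43.6, 42.8 and 49.3 CPM in the control (0.17 ± 0.12).

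Map3k14 had 110, 123 and 129 CPM in Chd4 cKO against 84.1, 85.3 and 78 CPM in the control. Each cKO library was above each control library (log2 fold change 0.55 ± 0.10, adjusted p = 0.00234), and all 9 alternatives kept the call. The genes that act beside it in the arm were not called: Chuk -0.23 (adjusted p = 0.0946), Traf2 0.02, Traf3 0.11, Birc2 -0.02 and Birc3 -0.30 (adjusted p = 0.0643). Nfkbiz, at 195, 67.4 and 93.1 CPM in Chd4 cKO against 49.5, 58.4 and 75.4 CPM in the control, had its largest value in cKO library A and narrowly missed the threshold (0.94 ± 0.33, adjusted p = 0.0537). It was called without a filter on low counts and without cKO library B. The other IkB genes lay between -0.22 and 0.11.

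Tnfrsf9 (ENSMUSG00000028965, chromosome 4, 150914562 to 150946102) had 26.2, 54.8 and 37.7 CPM in Chd4 cKO against 90.3, 67.3 and 93.1 CPM in the control. Its log2 fold change of -1.05 ± 0.23 (adjusted p = 0.00694) was the largest of the calls, without overlap, and all 9 alternatives kept it. Tnfrsf11b had 473, 507 and 491 CPM in Chd4 cKO against 382, 430 and 370 CPM in the control (0.32 ± 0.09, adjusted p = 0.0205). That call was lost without cKO library B (0.0651) and without control library A (0.0603). Tnfrsf1a, the main TNF receptor, had 74.6, 79.3 and 90.4 CPM in Chd4 cKO against 70.6, 58.9 and 63.4 CPM in the control (0.34 ± 0.11, adjusted p = 0.0478). It was lost with DESeq2 (0.0713) and without cKO libraries B or C or control libraries B or C (0.0857 to 0.15). Tnfrsf11a had 279, 312 and 289 CPM in Chd4 cKO against 261, 251 and 229 CPM in the control, without overlap, and did not pass (0.25 ± 0.09, adjusted p = 0.0584). Ltbr had 67.7, 61.6 and 46.9 CPM in Chd4 cKO against 43.9, 45.3 and 67 CPM in the control, which overlapped (0.18 ± 0.18).

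Ltb, Tnf and Lta lie side by side on chromosome 17 within 35194439 to 35205351. Ltb had 85, 102 and 90.1 CPM in Chd4 cKO against 49.5, 65.6 and 67.7 CPM in the control (log2 fold change 0.60 ± 0.13, adjusted p = 0.00709). All cKO libraries were above all control libraries, and all 9 alternatives kept the call. Tnf had 76.6, 41.8 and 59.3 CPM in Chd4 cKO against 38, 32.4 and 38.3 CPM in the control (0.70 ± 0.20, adjusted p = 0.0263), also without overlap. Its call was lost without cKO libraries A (0.0851) or C (0.0582) or control libraries A (0.0541) or B (0.0871). Lta had 29.6, 39.5 and 33 CPM in Chd4 cKO against 30.7, 29.7 and 26.8 CPM in the control, with overlap and no call (0.24 ± 0.15). Thymocyte markers summed to 104 to 133 CPM in cKO and 101 to 132 CPM in the control with none of 13 tested called. The 5 B cell markers summed to 78.5 to 99.6 CPM in cKO against 51.4 to 56.8 CPM in the control, with 1 of 5 higher. The 6 innate lymphoid markers summed to 215 to 239 CPM in cKO against 146 to 161 CPM in the control, with 2 of 4 tested higher, 1 lower and Ncr1 at 0 reads in both groups. Log2 fold changes of the 4 tested ran from -1.17 to 1.12, 2 above 0 and 2 below, so the sum does not speak for the list as a set. The 10 dendritic cell and macrophage markers summed to 589 to 757 CPM in cKO against 1059 to 1262 CPM in the control, with 1 of 8 tested higher and 3 lower. Of these sums Ptprc held 9.85 to 15.2 CPM in cKO and 5.69 to 12.1 CPM in the control. Itgax held 0.144 to 0.642 CPM in cKO and 0.479 to 3.09 CPM in the control, so other genes of the list made up most of each sum. The 8 fibroblast and endothelial markers summed to 235 to 249 CPM in cKO and 242 to 285 CPM in the control, with 2 of 5 tested lower, and the 5 cortical epithelial markers to 472 to 871 CPM in cKO and 652 to 927 CPM in the control, with 1 higher and 1 lower. The 11 mTEC markers summed to 17804 to 19457 CPM in cKO against 15872 to 16477 CPM in the control, with 4 higher and 3 lower. Of these sums H2-Aa held 7549 to 7801 CPM in cKO and 7907 to 8260 CPM in the control. Of the 11, 5 had positive and 6 negative log2 fold changes, with a median of -0.05, and the largest, 1.36, was that of Ccl21a. The higher sum is therefore not a rise of these markers as a set. The part of these cells in the members called was not tested.

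Between the WT groups, which share strain and genotype labels, no member was called by edgeR (adjusted p), where 0.128% of 15656 genes were. At an unadjusted p under 0.05 there were 5 of 40 members, and the share of all genes at that threshold was not computed. DESeq2 called 433 genes, and among them 1 member, Tnfrsf11b. Its values were 474, 199 and 370 CPM in WT for Fezf2 and 704, 748 and 594 CPM in WT for Aire (log2 fold change -0.97 ± 0.29, adjusted p = 0.211), and without WT for Fezf2 library B the change was -0.70 ± 0.14 (adjusted p = 0.0174), in a fit that called 3.93% of 16197 genes. Of the 40 members, 28 had a negative and 12 a positive log2 fold change, with a median of -0.20 against 0.03 for all genes. In 8 members, Nfkb2, Relb, Traf1, Traf6, Birc2, Birc3, Tnfrsf11a and Tnfrsf11b, every WT for Fezf2 library was below every WT for Aire library, and in none above (10% and 10.4% of all genes). These control groups also serve the knockout comparisons and differed in thymocyte markers, whose sums were 435 to 793 CPM in WT for Fezf2 and 79.3 to 172 CPM in WT for Aire.

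Whether a member's change differed between knockouts was tested as a contrast of log2 fold changes in one fit of all 18 libraries. Of 40 members, 9 differed between Chd4 and Aire, 8 between Chd4 and Fezf2 and 7 between Fezf2 and Aire, or 22.5%, 20% and 17.5%, where 16.5%, 14.9% and 16.9% of 16169 genes did. A total of 12 of these 24 differences passed under all 15 alternatives run for each. The other 12 were lost under 2 to 13 of their 15. The Chd4 pair also had another strain, run and annotation, and these cannot be told apart from the knockout in a difference from the other pairs. The Fezf2 and Aire pairs each had their own WT group.

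**Figure D4:**
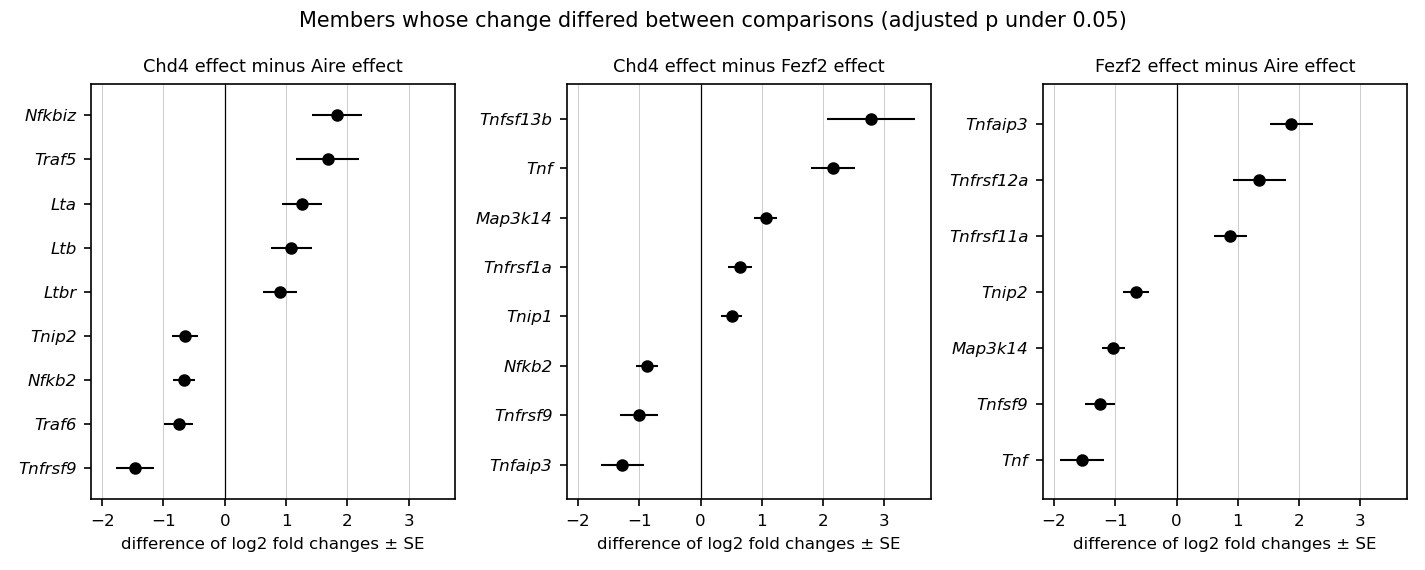
Members whose log2 fold change differed between 2 knockouts at an adjusted p under 0.05, with the difference and its SE, for Chd4 minus Aire (9 members), Chd4 minus Fezf2 (8) and Fezf2 minus Aire (7). A positive value means a more positive change in the knockout named first. Tnfsf13b had the largest difference, 2.78, between Chd4 and Fezf2.

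Nfkb2 changed differently in Chd4 cKO from both of the others. The difference was -0.67 ± 0.18 from the change in libraries labelled Aire KO (adjusted p = 0.0122) and -0.88 ± 0.18 from that in Fezf2 KO (adjusted p = 0.00208). Map3k14 separated Fezf2 from the other knockouts, with 1.06 ± 0.19 for Chd4 minus Fezf2 and -1.03 ± 0.19 for Fezf2 minus Aire (adjusted p = 6.59e-04 for each). For Tnf the differences were 2.16 ± 0.36 for Chd4 minus Fezf2 (adjusted p = 4.13e-04) and -1.55 ± 0.36 for Fezf2 minus Aire (adjusted p = 0.0044). Tnfaip3 differed by 1.87 ± 0.35 for Fezf2 minus Aire (adjusted p = 8.70e-04), and Tnfsf9 by -1.25 ± 0.25 (adjusted p = 0.0016).

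Between Chd4 and Aire, Tnfrsf9 differed by -1.47 ± 0.31 (adjusted p = 0.00249), having fallen in Chd4 cKO and risen in libraries labelled Aire KO. Nfkbiz differed by 1.83 ± 0.41 (adjusted p = 0.00354) and Lta by 1.26 ± 0.32 (adjusted p = 0.0101). Tnfsf13b, a low transcript, differed by 2.78 ± 0.71 between Chd4 and Fezf2 (adjusted p = 0.0114), with 13.4, 14.9 and 12 CPM in Chd4 cKO against 12.4, 5.19 and 4.31 CPM in its control. Traf5, an adaptor of several TNF receptors, was called in neither comparison and differed by 1.68 ± 0.51 between Chd4 and Aire. It had 12.8, 15.2 and 19.1 CPM in Chd4 cKO against 9, 12.4 and 9.57 CPM in the control, and 5.95, 3.86 and 3.07 CPM in libraries labelled Aire KO against 7.67, 10.3 and 9.07 CPM in WT. Tnip1 differed by 0.51 ± 0.17 between Chd4 and Fezf2, with 626, 653 and 681 CPM in Chd4 cKO against 613, 599 and 548 CPM in the control.

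By arm, median log2 fold changes lay near 0, with members on both sides in most comparisons, and no test was made of an arm. The 9 canonical genes (Nfkb1, Rela, Rel, Nfkbia, Nfkbib, Nfkbie, Ikbkb, Ikbkg, Traf6) had a median of 0.14 in libraries labelled Aire KO, 0.10 in Fezf2 KO and -0.09 in Chd4 cKO. The 8 non-canonical genes (Nfkb2, Relb, Map3k14, Chuk, Traf2, Traf3, Birc2, Birc3) had medians of 0.16, 0.02 and -0.03. Both lists mix activating genes with inhibitory ones, the IkB genes in the first and Traf2, Traf3, Birc2 and Birc3 in the second. Signs and medians therefore give no direction of an arm's activity. In libraries labelled Aire KO 7 canonical genes were positive and 2 negative, and all 8 non-canonical genes were positive (0.03 to 0.53), where 7467 of all 14949 genes tested were positive. That shared sign depended on the scaling. Without TMM adjustment, Traf2, Traf3 and Birc3 averaged 33.2, 9.36 and 113 RPKM in libraries labelled Aire KO against 34.6, 9.66 and 119 RPKM in WT. The other genes of the arm stayed higher in libraries labelled Aire KO. In Fezf2 KO 5 canonical genes were positive and 4 negative, and 4 non-canonical genes were positive and 4 negative. In Chd4 cKO 3 canonical genes were positive and 6 negative, and 3 non-canonical genes were positive and 5 negative. The canonical genes called were 1 in libraries labelled Aire KO (11.1%) and none in Fezf2 KO or Chd4 cKO. The non-canonical genes called were 2 in libraries labelled Aire KO (25%), none in Fezf2 KO and 2 in Chd4 cKO (25%). All genes were called at 15.1%, 4.87% and 28.6% in the same 3 comparisons, so that at these list sizes the shares say little about an arm. In Chd4 cKO the calls of this arm went apart, Map3k14 higher and Nfkb2 lower. Adding receptors and ligands to the arms gave medians of 0.13, 0.02 and 0.03 for the canonical and 0.05, -0.03 and 0.11 for the non-canonical arm. The wider non-canonical arm had 9 positive and 5 negative values in libraries labelled Aire KO.

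Around the 40 members, 69 further pathway genes and 40 known NF-kB targets were followed. Of the targets tested, 5 were higher and 15 lower of 38 in libraries labelled Aire KO (median log2 fold change -0.19), 1 higher and 8 lower of 39 in Fezf2 KO (-0.23), and 11 higher and 10 lower of 39 in Chd4 cKO (-0.11). The shares called were 52.6%, 23.1% and 53.8% of the targets, against 15.1%, 4.87% and 28.6% of all genes tested. The target list was chosen with earlier results of these data known, and the difference between these shares was not tested. Of the further pathway genes, 3 were higher and 6 lower of 58, 3 and 5 of 62, and 0 and 10 of 62. The chemokine Ccl20 fell in each comparison. It fell to 122, 87.5 and 124 CPM in libraries labelled Aire KO against 271, 407 and 345 CPM in WT. It stood at 160, 181 and 173 CPM in Fezf2 KO against 440, 676 and 365 CPM in WT, and at 80.6, 75.5 and 64.9 CPM in Chd4 cKO against 243, 294 and 309 CPM in the control. No group pair overlapped.

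Of the other genes of both lists with the lowest adjusted p in each comparison, Saa3, Cxcl2, Nos2 and Cd83 appeared in more than 1. No difference between knockouts was tested for them. In libraries labelled Aire KO they were the chemokines Ccl5 (log2 fold change -1.82), Cxcl1 (-1.31) and Cxcl2 (-1.06), the acute-phase gene Saa3 (-2.46) and Bcl2a1b (-1.20), an anti-apoptotic gene with near-identical copies whose counts are uncertain. In Fezf2 KO they were the targets Saa3 (-3.55), Cxcl2 (-1.27), Nos2 (-2.33, inducible nitric oxide synthase) and Cd83 (2.14), and the further pathway gene Cd70 (-1.76, the ligand of CD27). In Chd4 cKO they were Nos2 (-1.66), Cd83 (-1.36), the protease Mmp9 (1.66) and the chemokines Ccl19 (1.10) and Ccl21a (1.36), which have near-identical copies in the mouse. Their adjusted p-values lay between 2.27e-06 and 0.0135.

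The authors' deposited table gave q under 0.05 to 10 members for Aire, 6 for Fezf2 and 7 for Chd4, where it did so for 10.6%, 5.67% and 18.5% of its 21969 genes. Of these, 9, 3 and 6 were also called here. The authors' deposited table added Nfkbia for Aire (q = 0.0309), Tnfrsf11a (0.0253), Tnfrsf12a (0.00996) and Tnfsf13b (0.0411) for Fezf2, and Tnfrsf11a (0.0433) for Chd4, and gave Tnfrsf1a q = 0.0628 for Chd4.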

How the data were processed

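Sorted mTECs gave total RNA (Maxwell 16), and SMART-seq v4 libraries were prepared from it, per the labels' protocols. DESeq2 and the builds mm10 and GRCm38 appear in the submitters' processing notes, which hold no version of the tool. Aligner and strand use are unknown here. Per the file headers, the authors deposited counts of total exon reads per gene and library. The authors' deposited summary table gives log2 levels of each group with p-values and q-values. A further 360 per-library columns were not used. Library columns show the group and a sequencing barcode, and A, B and C were assigned in the order of barcodes. All Aire and Fezf2 libraries came from a single sequencing run with one annotation. The Chd4 libraries had another of each, and 21875 gene IDs were in common.

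Counts were tested with edgeR 4.0.16 in R 4.3.3 (filterByExpr, TMM, quasi-likelihood F test, Benjamini-Hochberg over all genes tested, threshold 0.05), each comparison on its 6 libraries. Differences between effects were contrasts in one fit of 18 libraries over shared gene IDs, with run and annotation nested in the pairs of groups. RPKM were computed from the counts and the exon lengths in the tables. Alternatives were RLE size factors, no filter, DESeq2 1.42.0 and leaving out each library in turn, and for levels no TMM adjustment. Scripts were tested on simulated data. Exon bases shared with another GENCODE gene were found for 7 of 40 members (Bcl3, Ikbkg, Map3k14, Nfkb2, Nfkbib, Tnfsf9, Traf5). Promoter sequences are from RefSeq (GRCm38.p6) and gene coordinates from GENCODE (GRCm38). The members, roles and lists were chosen with earlier results of these data known. Given with every library's value are the Rel subunits, Map3k14, Tnfrsf11a, Tnfrsf11b and Ltbr, other called members and members with a differing effect. Of the further genes, those with the 6 lowest adjusted p-values per comparison are named.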

Additional observations from a re-analysis of the deposited data

Results flagged for a closer look

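The values here were picked out because the change of a member in one knockout differed from its change in another by a test of that difference (edgeR contrast, adjusted p under 0.05). Each is a difference of log2 fold changes.

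For Chd4 minus Aire, Tnfrsf9 had -1.47, Nfkbiz 1.83, Lta 1.26 and Nfkb2 -0.67, and these 4 passed under all 15 alternatives. Ltb had 1.09 and was lost without libraries B or C labelled Aire KO, WT for Aire B, Chd4 cKO B or Chd4 control A (adjusted p 0.0676 to 0.0771). Traf5 had 1.68 and was lost without libraries B or C labelled Aire KO, WT for Aire B, Chd4 cKO C or Chd4 control A or C (0.0579 to 0.0706). Ltbr had 0.90 and was lost without libraries A or B labelled Aire KO, WT for Aire B or C, Chd4 cKO A or B or Chd4 control A or B (0.0522 to 0.0878). Tnip2 had -0.65 and was lost with no filter and without library C labelled Aire KO, WT for Aire A or C, Chd4 cKO A or C or any Chd4 control library (0.0586 to 0.0996). Traf6 had -0.75 and was lost with no filter and without libraries A or B labelled Aire KO, WT for Aire B or C, any Chd4 cKO library or Chd4 control A or B (0.0502 to 0.105).

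For Chd4 minus Fezf2, Tnf had 2.16, Map3k14 1.06, Nfkb2 -0.88 and Tnfsf13b 2.78, and these 4 passed under all 15 alternatives. Tnfaip3 had -1.28 and was lost without Chd4 cKO B or Chd4 control B (0.0509 and 0.0574). Tnfrsf9 had -1.01 and was lost without Fezf2 KO A or B, Chd4 cKO A or C or Chd4 control A or C (0.0544 to 0.108). Tnfrsf1a had 0.64 and was lost with RLE size factors, with no filter and without Fezf2 KO A or B, WT for Fezf2 C, Chd4 cKO B or C or Chd4 control B or C (0.0508 to 0.108). Tnip1 had 0.51 and was lost with RLE size factors, with no filter and without any library of the 4 groups but WT for Fezf2 B (0.0505 to 0.109).

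For Fezf2 minus Aire, Map3k14 had -1.03, Tnfaip3 1.87, Tnfsf9 -1.25 and Tnf -1.55, and these 4 passed under all 15 alternatives. Tnfrsf11a had 0.88 and was lost without library C labelled Aire KO, WT for Aire A or B or Fezf2 KO B (0.0677 to 0.0779). Tnip2 had -0.66 and was lost without library C labelled Aire KO, WT for Aire A or C or Fezf2 KO B or C (0.066 to 0.0998). Tnfrsf12a had 1.35 and was lost without libraries B or C labelled Aire KO, WT for Aire A or B, Fezf2 KO A or C or WT for Fezf2 A or C (0.0542 to 0.104).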

How the results depend on the processing

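Of 531 alternative values of 43 named results that passed, 406 passed again, 125 did not, and none changed sign. Of 189 values of 21 named results that did not pass, 183 again did not and 6 did. With no filter, the genes called were 3466 for Aire, 1387 for Fezf2 and 455 between the WT groups, against 2257, 765 and 20, with 5 members lower for Aire, 4 higher for Fezf2, 8 higher for Chd4, 1 lower between the WT groups, 2 lower for Chd4 minus Aire and 3 higher for Chd4 minus Fezf2. DESeq2 called 1398 genes for Fezf2 and 433 between the WT groups, with 3 members higher for Fezf2, 1 lower between the WT groups and 5 lower for Chd4 minus Fezf2. RLE size factors left 3 higher for Chd4 minus Fezf2. Wider arms gave medians of 0.05 for the non-canonical arm in Aire, and of 0.03 for the canonical and 0.11 for the non-canonical arm in Chd4, with more genes in each.

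Leaving out 1 library at a time gave 3 to 6 members higher and 1 to 5 lower for Aire, 0 to 4 higher and 0 to 3 lower for Fezf2 (169 to 2034 genes called), 3 to 4 higher for Chd4 (2 to 3 lower), 0 to 1 lower between the WT groups (0 to 636 genes), 2 to 5 higher and 2 to 3 lower for Chd4 minus Aire, 3 to 6 higher and 2 to 5 lower for Chd4 minus Fezf2, and 1 to 4 higher for Fezf2 minus Aire. The arm medians in Chd4 ranged from -0.14 to 0.08 (canonical) and -0.06 to 0.02 (non-canonical). WT for Fezf2 library B gave the upper ends for Fezf2 and between the WT groups. The cause of the other shifts was not tested. No paired analysis was possible because the columns carry no replicate number. Counts of members at 10 RPKM or more stayed within 1.5 times without TMM adjustment. Depth limits Tnfsf11 and Tnfsf13b, which rested on as few as 2 and 3 reads in a library.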
